A study of Mus musculus with 18 samples.

Results

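Genes of 2 stretches of mouse chromosome 5 were examined in 18 breast tumours, 10 labelled EV and 8 labelled p95HER2. The members were chosen by position and abundance: a start from 20 to 50 Mb or from 130 to 150 Mb on chromosome 5 (mm10, GENCODE M21) and a mean of at least 2 CPM (counts scaled to a common library total) over the 18 tumours. The positions themselves were selected on an earlier finding that genes there lay higher in p95HER2 than in EV tumours, so the difference between the groups is described here without a test. The rule took 394 genes, 190 in the first stretch and 204 in the second, of 1245 listed genes that start there and of 54532 genes in the table. All 394 passed the filter on low counts, and 353 of them code for protein.

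All 18 tumours were grown from PB2, a line of mouse breast cancer cells, under a doxycycline diet (DOX625), and the labels give the genotype as either EV or p95HER2, with no promoter, clone or mouse strain. p95HER2 is a truncated form of the receptor HER2 that lacks most of the part outside the cell. No label ties a tumour to its own mouse, so the spread reported, and any p-value, is that between these samples and may be technical. Total counts per library were 35030920 to 38464541 for EV and 32686558 to 34804640 for p95HER2; the ranges do not overlap, so depth and genotype cannot be told apart. The number tags in the sample titles, whose meaning the labels do not give, also run in separate ranges for the groups, with p95HER2 1 far from the other p95HER2 tumours, so tag order and genotype cannot be told apart either. Erbb2, the gene of HER2 (chromosome 11), was at 60.4 to 74.9 CPM in EV tumours (median 68.1) and at 122 to 231 CPM in p95HER2 tumours (median 143), with no overlap. All 8 epithelial markers of the tumour cells were measured, with a summed level of 1839 to 3073 CPM in EV and 1923 to 2488 CPM in p95HER2 tumours. Among markers of other cells, all 10 of macrophages, all 10 of T cells and all 6 measured ones of adipocytes had negative log2 fold changes (6, 2 and 6 called lower): the macrophage sum was 700 to 1670 CPM in EV and 424 to 1029 CPM in p95HER2 tumours, the T cell sum 15.7 to 83.3 and 8.89 to 36.7 CPM, and the adipocyte sum 29.0 to 127 and 9.49 to 36.6 CPM. Of 6 B cell markers, 3 defining ones, Cd79a and Ms4a1 among them, were too low to be tested, and the other 3 had negative log2 fold changes (2 called lower), with a sum of 2.92 to 8.25 CPM in EV and 0.797 to 3.25 CPM in p95HER2 tumours. Of 8 fibroblast markers 7 were negative and 1 was called lower (median -0.32), with a sum of 1732 to 4197 CPM in EV and 1500 to 3316 CPM in p95HER2 tumours.

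Genes that lie next to each other on a chromosome need not share a function, and these stretches hold genes of many roles. The first carries kinase and receptor genes such as Cdk5 and Fgfr3, the guidance factor Slit2 and the Huntington disease gene Htt. The second carries the mouse counterpart of the human Williams-Beuren interval, whose loss of 1 copy causes a developmental disorder in people, and beyond it the actin gene Actb, the GTPase gene Rac1, the growth factor gene Pdgfa and the ubiquitin ligase gene Smurf1. A shift common to a stretch is seen as a median over its genes, and a gene stands out when its own difference lies away from that median by more than its error.

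The DNA just before the RefSeq start of 5 members is shown because these members are among those named for the largest or smallest log2 fold changes: Gigyf1, Trim54, Fgl2 and Sh3tc1 hold a match to the AP-1 motif, and Atg9b, of the largest log2 fold change, holds none. The sequences are the 250 bases before the RefSeq start (GRCm38.p6, the assembly of mm10), 5′ to 3′ on the strand of the gene, with matches to AP-1 in capitals: Atg9b (chr5:24392144-24392393, minus strand), Gigyf1 (chr5:137518630-137518879, plus strand), Trim54 (chr5:31116362-31116611, plus strand), Fgl2 (chr5:21372423-21372672, plus strand) and Sh3tc1 (chr5:35739988-35740237, minus strand).
Atg9b: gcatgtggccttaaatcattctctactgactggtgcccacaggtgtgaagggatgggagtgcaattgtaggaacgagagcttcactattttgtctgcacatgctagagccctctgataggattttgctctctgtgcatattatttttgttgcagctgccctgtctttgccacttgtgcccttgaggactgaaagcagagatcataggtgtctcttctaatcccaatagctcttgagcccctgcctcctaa
Gigyf1: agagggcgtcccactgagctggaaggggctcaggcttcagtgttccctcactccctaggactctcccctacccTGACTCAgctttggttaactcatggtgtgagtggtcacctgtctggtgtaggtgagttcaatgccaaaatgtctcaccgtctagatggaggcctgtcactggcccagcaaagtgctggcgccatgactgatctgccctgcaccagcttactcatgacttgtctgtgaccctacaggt
Trim54: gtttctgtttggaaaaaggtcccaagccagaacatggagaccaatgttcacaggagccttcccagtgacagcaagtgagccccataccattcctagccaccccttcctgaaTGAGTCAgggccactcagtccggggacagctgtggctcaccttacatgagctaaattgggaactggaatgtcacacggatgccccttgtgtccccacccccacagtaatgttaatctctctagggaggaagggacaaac
Fgl2: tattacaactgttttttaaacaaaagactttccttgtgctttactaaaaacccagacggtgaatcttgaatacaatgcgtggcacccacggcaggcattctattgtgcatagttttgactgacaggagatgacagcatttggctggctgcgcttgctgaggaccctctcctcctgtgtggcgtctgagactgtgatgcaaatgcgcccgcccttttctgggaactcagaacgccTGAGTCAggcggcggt
Sh3tc1: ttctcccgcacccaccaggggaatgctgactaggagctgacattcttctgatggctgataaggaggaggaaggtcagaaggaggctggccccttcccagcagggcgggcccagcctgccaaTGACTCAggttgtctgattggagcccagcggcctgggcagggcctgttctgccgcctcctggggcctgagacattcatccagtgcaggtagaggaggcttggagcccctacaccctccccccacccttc
The RefSeq and GENCODE starts can differ: that of Gigyf1 lies 332 bases inside the gene as GENCODE has it, so the stretch shown is within the GENCODE gene, and that of Fgl2 lies 31 bases inside.
A RefSeq promoter of 300 bases (250 before the start and 50 after it) was found by symbol for 318 members. The AP-1 motif TGANTCA, searched on both strands, was in the promoters of 16 of them (5.03%), against 8.97% of 27025 genes with a promoter. The ETS motif CCGGAAG was in 73 (23.0%), against 9.93% of all genes, and the CArG box of SRF in 5 (1.57%), against 1.81%. The median G+C content was 61.8% for members and 52.8% for all genes. Members were taken at a mean of at least 2 CPM and the 27025 genes at any level, so the 2 sets are not alike and nothing is read from these shares. Of the 16 members named for the largest log2 fold changes, 14 had a promoter and 1 of these, Gigyf1, held the AP-1 motif. Of the 10 named for the smallest, 7 had a promoter and 3 held it. None of these 21 promoters held the ETS motif or the CArG box. A match gives the letters only and was not tested as a binding site.

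Members were higher in p95HER2 tumours by a median log2 fold change of 0.16 in each stretch, a ratio of 1.12, where the median of all 13028 genes of at least 2 CPM was -0.0023. The difference was above 0 for 144 of 190 members of the first stretch and 156 of 204 of the second. Read per gene, 141 members were called higher and 9 lower (edgeR quasi-likelihood, Benjamini-Hochberg adjusted p under 0.05 over all genes), beside 5.73% of all 17123 tested genes called higher and 4.45% called lower. Since the same contrast chose the stretches, nothing is read from these counts. In 13 members the lowest p95HER2 tumour lay above the highest EV tumour, beside 0.714% of all genes of at least 2 CPM, and in 0 members the groups separated the other way, beside 0.123%.

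**Figure D1:**
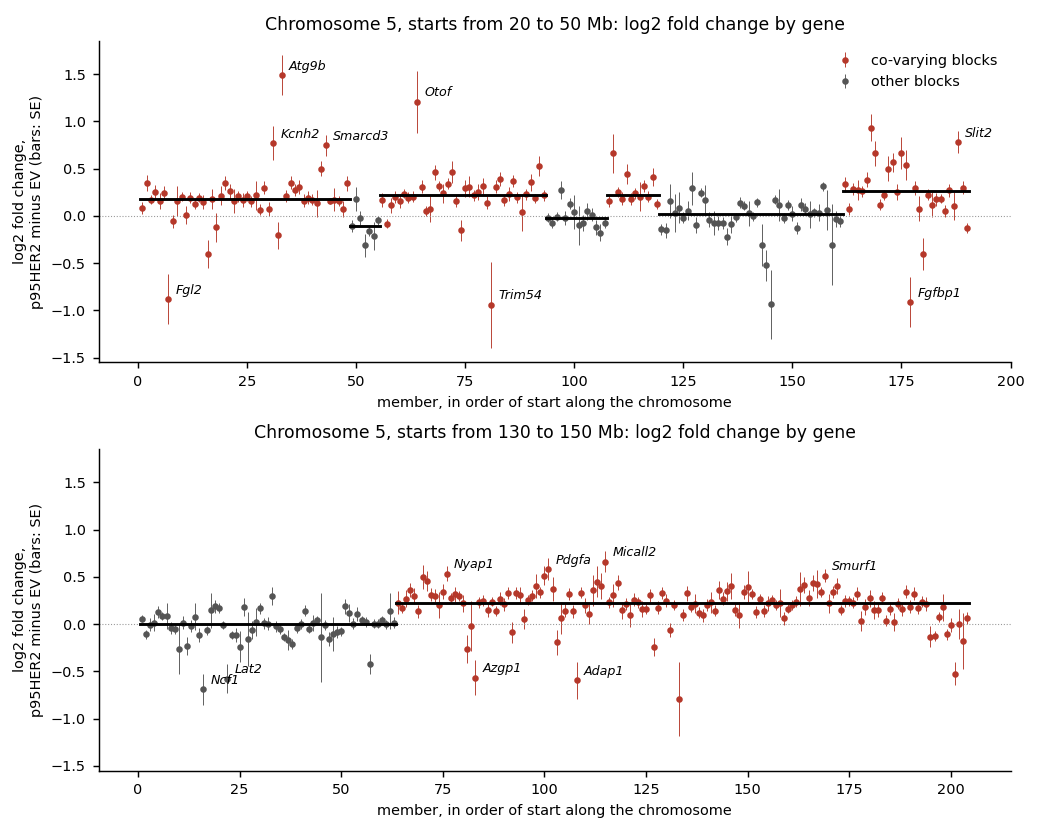
Log2 fold change (p95HER2 minus EV, bars show the SE) of the 190 and 204 members in order along the chromosome, with black lines at the median of each block. Runs of genes near a difference of 0.2 alternate with runs near 0, and a few genes such as Atg9b (1.49) lie far from their run.

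The 3 EV tumours in which the stretches were lowest were EV 5, EV 7 and EV 9. Leaving them out must lower the difference, since their level chose them, and it is given for its size alone: 66 members were called higher and 1 lower, and the stretch medians were 0.12 and 0.11. When each tumour's immune marker level was a covariate, 11 members were called higher and 0 lower, and the medians were 0.0698 and 0.0509, while the calls over the whole table went from 1743 to 335. The B cell marker levels, as mean log2(CPM + 0.5), were 1.34, 1.46 and 1.27 in EV 5, EV 7 and EV 9, in a range of 0.53 to 1.46 over EV tumours and of -0.44 to 0.60 over p95HER2 tumours. These were the highest 3 of the EV tumours, but the level lacks 3 defining B cell markers. T cell marker levels of the same 3 tumours were 2.14, 2.88 and 2.64, in an EV range of 0.72 to 2.88, with EV 4 (2.62) and EV 6 (2.56) above EV 5. Macrophage marker levels were 6.4, 6.71 and 6.22, in an EV range of 5.44 to 6.71, with EV 2 (6.48) above EV 5 and both EV 2 and EV 6 (6.22) above EV 9. The part of other cells in the shift was not tested. In bulk tumours, fewer cells of a type and less RNA per cell cannot be told apart.

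The shift was not spread evenly. For each member, Pearson's r across the 10 EV tumours was taken with the level of the other stretch, the level being the median over its members of log2(CPM + 0.5) after the mean of each gene is removed. These EV values alone were then divided into runs of at least 5 genes. The first stretch fell into 7 blocks and the second into 2, and the blocks were of 2 kinds. In 5 blocks, here called co-varying, the median r was 0.68 to 0.82, and in the other 4 it was -0.17 to 0.03. The co-varying blocks held 268 members, of which 174 (64.9%) had an r over 0.6. The other blocks held 126, of which 4 (3.17%) did, and among 12169 genes of other chromosomes, set against the mean level of both stretches, 6.46% did. The EV values defined the blocks, so these shares are descriptions.

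From the start of the first stretch, the co-varying blocks ran from Phtf2 to Galnt11 (48 members, starts 20758663 to 25221904), from Lmbr1 to Zfp512 (38 members, 29229802 to 31452431), from Ywhah to Letm1 (12 members, 33018816 to 33739673) and from Zbtb49 to Adgra3 (29 members, 38189735 to 49959956). Between them lay Kmt2c to Rbm33 (7 members), Gpn1 to Depdc5 (14 members) and Nsd2 to Stx18 (42 members, 33820725 to 38038742). In the second stretch the members from Asl to Trim56 (63 members, 130011258 to 137105644) did not co-vary and those from Ufsp1 to B3glct (141 members, 137294629 to 149678230) did. The distance across an edge varied. Rbm33 and Lmbr1 start at 28317121 and 29229802, whereas other edges lay between closer neighbours. Zfp512, a zinc finger gene, and Gpn1, a GTPase gene, start 31452431 and 31494741 bases along the chromosome, and Letm1, of the inner mitochondrial membrane, and Nsd2, a histone methyltransferase gene, at 33739673 and 33820725.

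The r values across p95HER2 tumours were not used to divide the stretches into blocks. These tumours did enter the choice of stretches and members, and the gene means removed for the level were taken over both groups. They were thus not wholly apart from the definition of the blocks. In p95HER2 tumours, too, every co-varying block had a higher median r than every other block. The median r across the 8 p95HER2 tumours was 0.49, 0.54, 0.48 and 0.28 in the 4 co-varying blocks of the first stretch, in order, and 0.53 in that of the second. It was 0.04, -0.13 and -0.27 in the other blocks of the first stretch and 0.05 in that of the second. Divided on their own, however, the p95HER2 values gave other edges: Phtf2 to Zfp512 formed 1 run of 93 members, and Rgs12 to Adgra3 1 run of 53 members with a median r of 0.09, which joins members of both kinds. Of the 268 members of co-varying blocks, 109 had an r over 0.6 in p95HER2 tumours and 90 had it in both groups, whereas of the 126 others 8 had it in p95HER2 tumours and 0 in both. Across pairs of members from opposite stretches, with group means removed, the median r was 0.34 in co-varying blocks and -0.01 in the other blocks, and it was 0.0021 between members of co-varying blocks and genes of other chromosomes. Without EV 5, EV 7 and EV 9 the pairs of co-varying blocks had a median r of 0.19. Across the other 7 EV tumours, the median r with the other stretch was 0.52 in the co-varying blocks of the first stretch. It was 0.38 in that of the second, with 0.19 and -0.03 in the other blocks. The genes compared share the same libraries, and r is a description without a test.

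**Figure D2:**
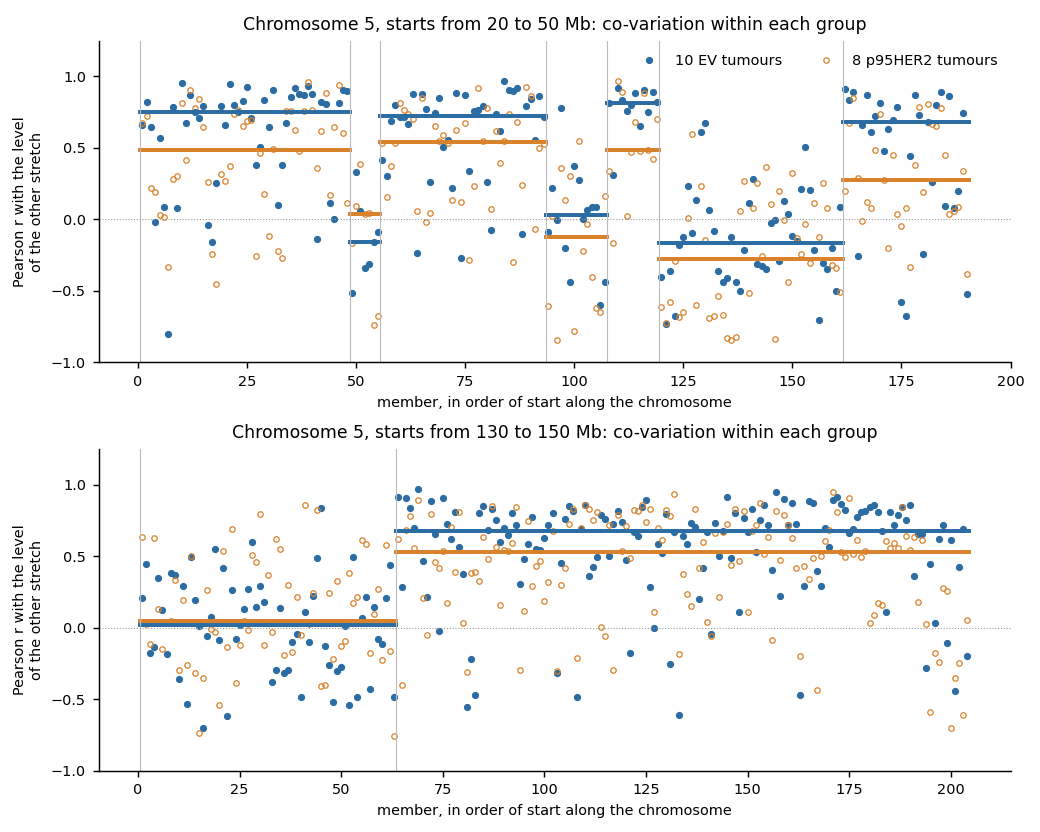
Pearson r of each member with the level of the other stretch, across 10 EV tumours (filled) and 8 p95HER2 tumours (open), in order along the chromosome; thick lines are block medians and thin vertical lines block edges. Block medians are 0.68 to 0.82 (EV) and 0.28 to 0.54 (p95HER2) in co-varying blocks and at most 0.05 in the others.

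The difference between the groups is given by the same blocks. Members of co-varying blocks had a median log2 fold change of 0.22 (a ratio of 1.16), with 241 of 268 above 0, 137 called higher and 3 called lower. Members of the other blocks had a median of -0.01, with 59 of 126 above 0, 4 called higher and 6 called lower. By block, the medians were 0.18, 0.22, 0.22 and 0.26 in the co-varying blocks of the first stretch and 0.23 in that of the second, and -0.11, -0.02, 0.02 and -0.0043 in the other blocks. The EV tumours enter both the blocks and the difference, so the 2 are not independent. Of the 13 members whose groups did not overlap, 12 lay in co-varying blocks and the other was Wfs1, of the endoplasmic reticulum membrane. The median was near 0.2 at all abundances: in co-varying blocks it was 0.20 for 81 members of 2.01 to 26.1 CPM, 0.27 for 86 members of 29.1 to 101 CPM and 0.20 for 101 members of 102 to 2807 CPM. The SD among members was 0.39, 0.21 and 0.11 in these classes, so less abundant members scattered more.

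Tumour by tumour, the level of all co-varying blocks was -0.27 to 0.08 in EV tumours (median -0.05, mean -0.10 ± 0.12 SD, n = 10) and -0.00052 to 0.21 in p95HER2 tumours (median 0.15, mean 0.12 ± 0.07 SD, n = 8). EV 7, EV 5 and EV 9 were the lowest, at -0.27, -0.24 and -0.24, followed by EV 4 at -0.12. EV 10 was the highest EV tumour at 0.08, above 3 p95HER2 tumours: p95HER2 8 at -0.00052 and p95HER2 3 and p95HER2 5 at 0.07 and 0.08. The lowest p95HER2 tumour lay above 9 of 10 EV tumours, and the highest EV tumour lay below 5 of 8 p95HER2 tumours. The tumour of highest Erbb2, p95HER2 8 at 231 CPM, was thus the p95HER2 tumour of lowest level. The next in Erbb2, p95HER2 6 at 186 CPM and p95HER2 4 at 181 CPM, were at 0.17 and 0.16, above the p95HER2 median. A relation between Erbb2 and the level was not tested. The level of the other blocks was -0.05 to 0.10 in EV and -0.03 to 0.06 in p95HER2 tumours, with group means that differed by -5.6e-05.

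EV 5, EV 7 and EV 9 were low in each co-varying block and within the range of the other EV tumours in the blocks between. In the block from Phtf2 to Galnt11 they were at -0.28, -0.23 and -0.26, and in the block from Ufsp1 to B3glct at -0.22, -0.28 and -0.24. In the block from Nsd2 to Stx18, which begins within 100 kb of a co-varying block, they were at 0.09, -0.02 and 0.05, and EV 4 was the lowest at -0.16. The block from Gpn1 to Depdc5 had EV 4 lowest, at -0.20, and EV 1 highest, at 0.20.

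**Figure D3:**
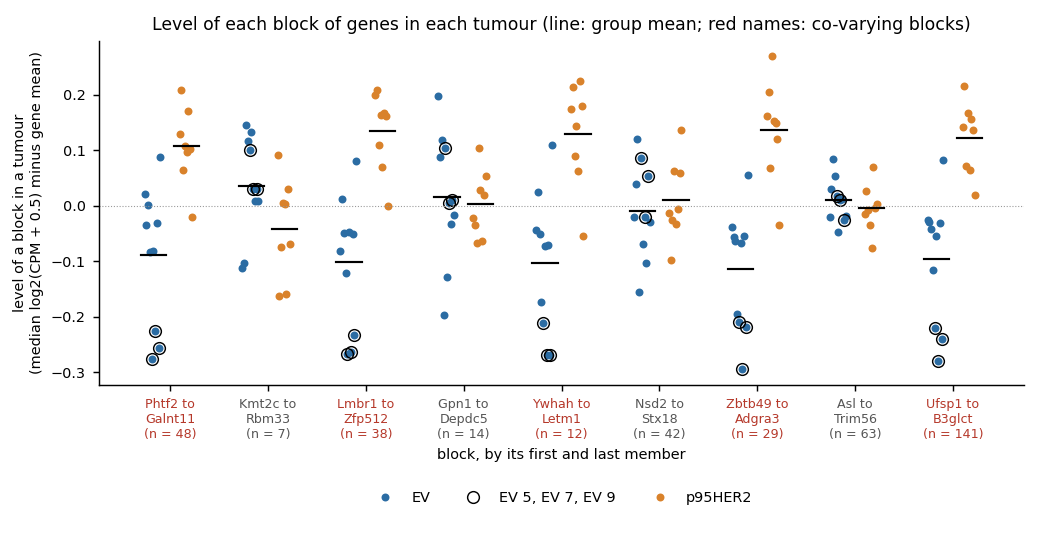
Level of each of the 9 blocks in each tumour (points), with group means as lines and EV 5, EV 7 and EV 9 circled. The circled tumours lie lowest, between -0.30 and -0.21, in the 5 co-varying blocks and among the other EV tumours in the remaining 4. The division of blocks by r across EV tumours largely builds this in.

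Among genes of the cytoskeleton, 12 of 18 members lay in co-varying blocks, and these had log2 fold changes of 0.20 to 0.66, with 8 called higher, beside 241 of 268 members of co-varying blocks above 0. The median of the 18 was 0.23, and 9 were called higher and 0 lower. For this and the lists below, 141 of all 394 members were called higher and 9 lower, beside 5.73% and 4.45% of all genes tested. Nothing is read from the counts by role. Actb, the gene of cytoplasmic beta-actin, was at 2208 to 3000 CPM in EV tumours (median 2680) and at 2712 to 3502 CPM in p95HER2 tumours (median 2943), a log2 fold change of 0.20 (SE 0.06), near the block median. Arpc1b and Arpc1a, neighbouring genes that encode subunits of the actin-branching Arp2/3 complex, lay higher than this median, Arpc1b by over 2 SE. Arpc1b was at 729 to 1178 CPM (median 987) in EV and at 1133 to 1559 CPM (median 1252) in p95HER2 tumours, and its log2 fold change was 0.40 (SE 0.08). Arpc1a had 0.34 (SE 0.06), and Rac1, the GTPase of membrane ruffles, 0.27. Mapre3, which encodes a protein of growing microtubule ends, was at 35.6 to 56.8 CPM in EV tumours (median 47.3) and at 57.3 to 72.4 CPM in p95HER2 tumours (median 65.2), so its groups just separated. Outside the co-varying blocks, 4 of 6 members were negative and 2 positive. The actin-related gene Actr3b had -0.31, the myosin phosphatase subunit gene Ppp1cb -0.08 and the adducin gene Add1 -0.07, and none of these was called. Clip2, with 0.175, was called higher.

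Micall2, whose product couples Rab GTPases to actin at cell junctions, was the member of largest log2 fold change in the second stretch. It was at 20.5 to 44.6 CPM in EV tumours (median 31.0) and at 41.8 to 64.0 CPM in p95HER2 tumours (median 48.3), a log2 fold change of 0.66 (SE 0.11). One EV tumour reached into the p95HER2 range. Of 13 members of the list of junctions and membrane traffic, 3 were called higher and 0 lower, with a median of 0.16. The transporter gene Slc12a9 had 0.36 (SE 0.07) and the autophagy gene Wipi2 0.18 (SE 0.06). The call of Wipi2 was lost in 20 of 26 alternatives, with edgeR adjusted p-values of up to 0.746. The tight junction genes Cldn3 and Cldn4, in the block from Asl to Trim56, had -0.06 and -0.16, neither called.

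Of 25 members for receptors, kinases and growth signalling, 8 were called higher and 0 lower, all 8 in co-varying blocks, where the median was 0.32 for 12 members against -0.0063 for 13 members elsewhere. This list also holds genes of other roles. Mapre3, also in the cytoskeleton list, and Smurf1, also in that of protein turnover, were among the 8. Smurf1, a ubiquitin ligase that targets components of the BMP and TGF-beta pathways and RhoA, was at 160 to 228 CPM in EV tumours (median 196) and at 239 to 321 CPM in p95HER2 tumours (median 275), with no overlap. Its log2 fold change was 0.51 (SE 0.07), 0.29 above the median of its block. Pdgfa, which encodes the A chain of platelet-derived growth factor, was at 34.3 to 65.6 CPM (median 44.3) in EV and at 56.4 to 79.7 CPM (median 69.3) in p95HER2 tumours, a log2 fold change of 0.58 (SE 0.12). Cdk5, a cyclin-dependent kinase best known from neurons, had 0.35 (SE 0.07) and Fgfr3, a receptor of fibroblast growth factors, 0.41 (SE 0.09). The Eph receptor gene Ephb4 had 0.30 (SE 0.08), and its call was lost in 6 of 26 alternatives. Genes of the same list outside the co-varying blocks had values near 0: the AP-1 subunit gene Fosl2 had 0.04, the Src family kinase gene Yes1 0.01 and Limk1, a kinase that acts on cofilin, -0.11, none of them called.

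**Figure D4:**
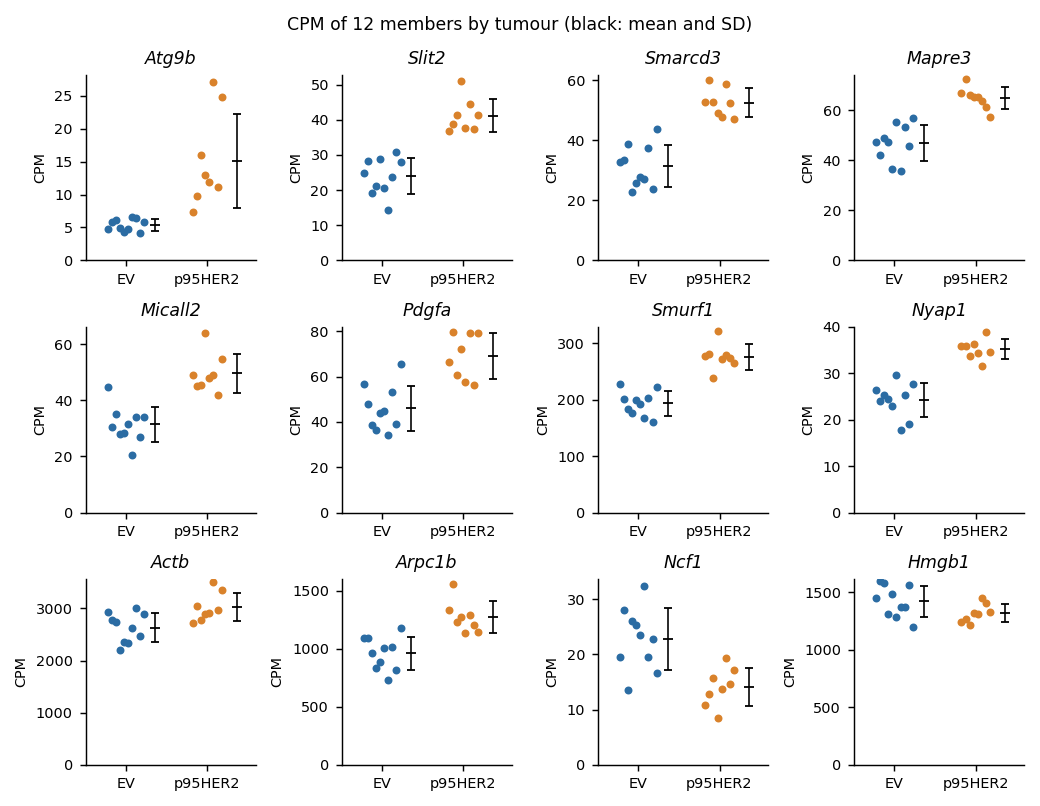
CPM of 12 members in each tumour (points), with mean and SD beside each group, on axes that start at 0. Atg9b, Slit2, Smarcd3, Mapre3, Smurf1 and Nyap1 show no overlap between 10 EV and 8 p95HER2 tumours, whereas the groups overlap for Actb, Arpc1b, Micall2, Pdgfa, Ncf1 (medians 23.2 and 14.2) and Hmgb1 (medians 1411 and 1315).

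Chromatin and transcription genes had 30 members, of which 8 were called higher and 1 lower. The 17 in co-varying blocks had a median of 0.23 and the 13 elsewhere -0.08. Smarcd3, a subunit of SWI/SNF chromatin remodelling complexes, was at 22.7 to 43.7 CPM in EV tumours (median 30.3) and at 47.0 to 60.1 CPM in p95HER2 tumours (median 52.6), a log2 fold change of 0.75 (SE 0.11) with no overlap. It overlaps Chpf2, a chondroitin synthesis gene, on the opposite strand, which itself had 0.50 (SE 0.08). Because the strand setting of the counting is not given, reads of the 2 cannot be told apart. Trrap, a scaffold of histone acetyltransferase complexes, had 0.34 (SE 0.05), Sun1, of the nuclear envelope, 0.32 (SE 0.06), and Ctbp1, a transcriptional corepressor, 0.25 (SE 0.05). Of the genes for histone methyltransferases and their relatives, Kmt2e, in a co-varying block, had 0.35, and Kmt2c and Nsd2, outside these blocks, -0.11 and -0.14, neither called. Hmgb1, an abundant DNA-bending protein gene near the end of the second stretch, had -0.11 (SE 0.06). The one called lower was Baz1b (-0.14), in the Williams-Beuren interval.

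The cell cycle and DNA replication or repair list had 15 members, of which 9 were called higher and 0 lower; the 12 in co-varying blocks had a median of 0.21. The 9 include genes with other known roles: Eif2ak1, a kinase of translation control, the zinc finger gene Rbak, Usp42 and Cdk5, while Mcm7, Rfc2, Cenpa, Ncapg and Xrcc2, of replication, chromosome segregation and repair, were not called. Uvssa, needed for transcription-coupled repair, had 0.44 (SE 0.10) and the deubiquitinase gene Usp42 0.26 (SE 0.05). The replicative helicase subunit gene Mcm7 had 0.14, the centromere histone gene Cenpa 0.05 and the condensin gene Ncapg 0.05, none called, and Cenpa and Ncapg lay over 2 SE below their block medians. The list of mitochondrial and metabolic enzymes, which also holds genes of other roles, had 25 members with 8 called higher and 0 lower. Among them were Hadha, of mitochondrial fatty acid oxidation, at 267 to 339 CPM in EV tumours (median 308) and at 319 to 381 CPM in p95HER2 tumours (median 364), and the ATP synthase subunit gene Atp5j2, with 0.32 (SE 0.06). Hadha had 0.23 (SE 0.05), close to its block. Agbl5, a tubulin-modifying carboxypeptidase gene of that list, had 0.34 (SE 0.06). The list of chaperones and protein turnover, which also holds genes of other roles, had 18 members with 8 called higher and 0 lower, and a median of 0.15. The translation genes Eif2ak1 and Eif3b were among the 8. Its member Wfs1, which protects against stress of the endoplasmic reticulum, was at 28.5 to 34.7 CPM in EV tumours (median 32.1) and at 36.2 to 42.3 CPM in p95HER2 tumours (median 39.2). It lay in the block from Nsd2 to Stx18, whose median was 0.02, and had 0.31 (SE 0.05).

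The 22 members of the Williams-Beuren interval all lay in the block from Asl to Trim56 and had a median of -0.06, with 1 called higher and 4 lower. The cytoskeletal linker gene Clip2 (0.17) was the one called higher. Nsun5, an RNA methyltransferase gene, was at 19.0 to 24.0 CPM (median 22.4) in EV and at 17.9 to 20.9 CPM (median 18.6) in p95HER2 tumours, a log2 fold change of -0.21 (SE 0.05). The transcription factor genes Gtf2i and Gtf2ird1 had -0.07 and 0.19, neither called. The 2 lowest of the interval were Ncf1 and Lat2, both genes of immune cells.

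Genes of immune cells had mostly negative log2 fold changes. Of 10 members, 8 were lower in p95HER2 tumours, 3 called, and 2 were higher, both called, with a median of -0.25. Ncf1, a subunit of the phagocyte oxidase, was at 13.6 to 32.5 CPM in EV tumours (median 23.2) and at 8.47 to 19.4 CPM in p95HER2 tumours (median 14.2), a log2 fold change of -0.69 (SE 0.17). Lat2, an adaptor of immune receptors, had -0.58 (SE 0.15) and Alox5ap, needed for leukotriene synthesis, -0.52 (SE 0.12). Alox5ap lies in a co-varying block with a median of 0.23, but among its last 11 members, which some other block settings set apart with a median of -0.0096. Of the 10 macrophage markers 6 were called lower (median log2 fold change -0.62), and their part in these values was not tested. Under the immune covariate the calls of Ncf1, Lat2 and Alox5ap were lost, with edgeR adjusted p-values of 0.655, 0.640 and 0.353. The loss was not particular to immune genes, since 32 named genes lost their call under this covariate without a change of sign. Among them were Arpc1b, Ctbp1 and Pdgfa, with edgeR adjusted p-values of 0.357, 0.279 and 0.216. The calls of Ncf1 and Lat2 were also lost without EV 5, EV 7 and EV 9, with edgeR adjusted p-values of 0.0809 and 0.0981. Within EV tumours, too, Ncf1 and Lat2 had an r of -0.70 and -0.62 with the level of the first stretch. The exceptions were the neighbouring and related genes Bst1 and Cd38, which encode ectoenzymes that consume NAD. Bst1 was at 3.0 to 5.57 CPM (median 3.98) in EV and at 3.26 to 9.65 CPM (median 6.45) in p95HER2 tumours, a log2 fold change of 0.66 (SE 0.17), and Cd38 had 0.54. Both had a negative r in EV tumours, -0.58 and -0.67.

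Of 4 members expressed in endothelial cells, Pdgfa and Ephb4 were called higher, and Flt1, a receptor of VEGF (0.17, SE 0.05), and Nos3, the endothelial nitric oxide synthase (-0.20), were not called. The endothelial marker sum was 75.6 to 154 CPM in EV and 85.0 to 138 CPM in p95HER2 tumours. Secreted and matrix proteins had 10 members, with 2 called higher and 1 lower and a median of -0.06. Slit2, a secreted ligand of Robo receptors, was at 14.3 to 30.9 CPM in EV tumours (median 24.3) and at 36.9 to 51.0 CPM in p95HER2 tumours (median 40.1), a log2 fold change of 0.78 (SE 0.12) with no overlap. Fgfbp1, a secreted carrier of fibroblast growth factors, was at 3.30 to 9.18 CPM (median 6.32) in EV and at 1.54 to 6.59 CPM (median 3.15) in p95HER2 tumours, a log2 fold change of -0.91 (SE 0.26). These 2 genes lie in the same block, from Zbtb49 to Adgra3. The call of Fgfbp1 was lost in 10 of 26 alternatives, with edgeR adjusted p-values of up to 0.140.

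Against the median of its stretch, 69 members lay higher by over 2 SE and 99 lower, beside 16.4% and 14.3% of all genes of at least 2 CPM set against their own median. Of the 69, 68 lay in co-varying blocks, and of the 99, 75 lay in the other blocks. This follows from the block medians, since the stretch median lies below those of co-varying blocks and above those of the others. Against their own block medians, 16 members of the other blocks lay higher and 15 lower. Against the median of the gene's own block, 51 of 394 lay higher and 48 lower, smaller shares than the 16.4% and 14.3% of all genes. Members thus left their block median no more often than genes at large left the overall median. In co-varying blocks 35 members exceeded their block by 0.11 to 1.31 on the log2 scale and 33 fell short of it by over 2 SE. These departures come from the contrast that chose the stretches and are descriptions.

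Atg9b exceeded its block by more than any other member, by 1.31. It encodes a transporter of autophagy membranes and overlaps Nos3 on the opposite strand, so with the strand setting not given its counts are uncertain; Nos3 itself had -0.20. Atg9b was at 4.17 to 6.59 CPM in EV tumours (median 5.38) and at 7.33 to 27.1 CPM in p95HER2 tumours (median 12.4), a log2 fold change of 1.49 (SE 0.21). The p95HER2 tumours spread over a wide range while the EV tumours lay close together. Otof, known for vesicle fusion in inner hair cells, was at 0.953 to 6.53 CPM in EV tumours (median 2.13) and at 4.84 to 10.7 CPM in p95HER2 tumours (median 5.63), a log2 fold change of 1.21 (SE 0.33). Its highest value, in p95HER2 4, lay far above the next, and its call was lost without that tumour and in 3 other alternatives, with edgeR adjusted p-values of 0.0597 to 0.252. Kcnh2, a potassium channel gene, had 0.77 (SE 0.18), Hs3st1, a heparan sulfate sulfotransferase gene, 0.66 (SE 0.13), and the glucose transporter gene Slc5a1 0.66 (SE 0.21). The call of Slc5a1 was lost in 15 of 26 alternatives. In the second stretch, Nyap1, a phosphoprotein gene of the PI3K pathway in neurons, was at 17.8 to 29.5 CPM in EV tumours (median 24.9) and at 31.6 to 39.0 CPM in p95HER2 tumours (median 35.2), a log2 fold change of 0.53 (SE 0.08). Fam20c, the kinase of secreted proteins, had 0.51 (SE 0.10), Gigyf1, an adaptor of translational control, 0.46 (SE 0.10), Tmem184a 0.44 (SE 0.08), and Baiap2l1, an actin-bundling adaptor, 0.43 (SE 0.09).

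These members differed in whether they also followed the level of the other stretch from one EV tumour to the next. Of the 35 that exceeded a co-varying block, 24 had an r over 0.6 in EV tumours, beside 140 of 200 members within 2 SE of their block. Kcnh2 had 0.91, Arpc1b 0.91, Baiap2l1 0.87, Smarcd3 0.80, Tmem184a 0.82, Micall2 0.76, Pdgfa 0.72 and Smurf1 0.70. Atg9b had 0.38, Slc5a1 0.31, Slit2 0.20 and Gigyf1 0.21, while Otof had -0.24 and Bst1 -0.58. Of the 33 members that fell short of a co-varying block, 10 had an r over 0.6 and 16 had one below 0.

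Among the smallest log2 fold changes, beside those of Fgfbp1, Ncf1 and Lat2, was that of Trim54. Trim54, a muscle sarcomere gene, was at 0.191 to 16.2 CPM in EV tumours (median 8.97) and at 2.30 to 7.02 CPM in p95HER2 tumours (median 5.07), a log2 fold change of -0.94 (SE 0.45), not called. The skeletal muscle marker sum ranged from 86.3 to 6533 CPM in EV and from 295 to 3324 CPM in p95HER2 tumours, and its part in Trim54 was not tested. Fgl2, which encodes a prothrombinase of macrophages and T cells, was at 20.4 to 71.1 CPM (median 42.5) in EV and at 9.84 to 33 CPM (median 24.1) in p95HER2 tumours, and had -0.88 (SE 0.27). Its r with the other stretch in EV tumours was -0.80, and under the immune covariate its log2 fold change was 0.0855, of the opposite sign and not called (edgeR adjusted p = 0.785). Its call was also lost in 16 of the other alternatives. Sh3tc1 had -0.52 (SE 0.16), and its call was lost in 17 of 26 alternatives. In the second stretch Adap1 had -0.59 (SE 0.20) and Azgp1, a secreted lipid-mobilizing protein gene, -0.57 (SE 0.19), neither of them called.

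The members with the highest CPM scattered less. In co-varying blocks the peptidase gene Lap3 had 0.17 (SE 0.07) and the ribosomal protein gene Rpl21 0.16 (SE 0.07), neither called, beside the positive values of Ctbp1, Actb and Arpc1b. Hmgb1, also in a co-varying block but among its last 11 members, which some other block settings set apart, had -0.11 (SE 0.06), not called. Rpl21 has near-identical copies elsewhere in the genome, so its counts are uncertain. In the other blocks Mrfap1, a gene of unsettled function, was at 878 to 1062 CPM in EV tumours (median 959) and at 903 to 1072 CPM in p95HER2 tumours (median 977), with 0.04 (SE 0.05), and Ppp1cb had -0.08 (SE 0.08). Nub1, a regulator of NEDD8 whose 0.16 (SE 0.03) sits at the median of its stretch, was at 192 to 216 CPM (median 199) in EV and at 210 to 236 CPM (median 223) in p95HER2 tumours. The others nearest to the medians were Tmub1 (0.16), Snx8 (0.16) and Eif3b (0.16), and the call of Eif3b was lost in 18 of 26 alternatives.

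At the limits of the rule, the outermost members were Phtf2 (0.09) and Adgra3 (-0.12) in the first stretch and Asl (0.06) and B3glct (0.06) in the second. Their nearest neighbours outside were Magi2 (0.24), Ppargc1a (0.10), Gusb (0.05) and Fry (0.17). At the abundance threshold, Rpl17-ps5 (2.01 CPM) and Prkar1b (2.04 CPM) were just inside, with -0.12 and -0.19, and Nxpe5 (1.97 CPM) and Gm15522 (1.87 CPM) just outside, with -0.45 and -0.21. The last 11 members of the second stretch, from Slc46a3 to B3glct, formed a run of their own when p95HER2 tumours alone were used. EV tumours alone gave the same run at a cost of 4 median steps per block. Its median log2 fold change was -0.0096, and its median r was 0.42 in EV and -0.24 in p95HER2 tumours. Division by log2 fold changes set apart the last 10, from Slc7a1 to B3glct, with a median of -0.06.

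Between and beside the stretches the level ran differently. Genes of chromosome 5 that start from 50 to 110 Mb had a level of -0.03 to 0.06 in EV and of -0.08 to 0.04 in p95HER2 tumours. Those from 110 to 130 Mb had -0.02 to 0.10 in EV and -0.09 to 0.0088 in p95HER2 tumours. Of 219 windows of 10 Mb across the genome, ranked by the median r of their genes with the stretches in EV tumours, the first 3 were the windows of chromosome 5 from 140, from 20 and from 40 Mb (0.70, 0.67 and 0.64). The fourth lay on chromosome 11 from 110 to 120 Mb, with 123 genes, a median r of 0.50 in EV and 0.40 in p95HER2 tumours and a median log2 fold change of 0.15. The windows of chromosome 5 from 130 and from 30 Mb, which mix both kinds of block, ranked 5 and 7. The reference was the mean level of both stretches. Members of the stretches fill these windows of chromosome 5, so their high ranks are partly built in, whereas the window of chromosome 11 had no part in the reference.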

How the data were processed

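RNA of 18 PB2 tumours (10 EV, 8 p95HER2) was sequenced from directional mRNA libraries, per the labels' protocols, and the table that the authors deposited holds raw counts for each Ensembl gene and tumour, not normalized. The tools in the submitters' processing notes are STAR 2.5 and HTSeq 0.6.1, with mm10 as the build; neither strand setting nor annotation release is given there. Replicate numbers follow accession order and pair nothing. Closest libraries differed by more than sampling noise (chi-square per degree of freedom of 9.72), so all 18 were kept.

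Coordinates came from GENCODE M21 (1-based) and promoters from RefSeq. Genes were filtered with filterByExpr (minimum count 10, minimum total 15), TMM-scaled and fitted on the whole table with edgeR 4.0.16 in R 4.3.3 (robust quasi-likelihood F-test, Benjamini-Hochberg adjustment over 17123 genes). Log2 fold changes are p95HER2 minus EV. On simulated counts over 16989 genes for this comparison, 19 of 58 genes changed 1.25-fold, 32 of 49 changed 1.5-fold and 40 of 44 changed 2-fold were called, with 2 of 16796 unchanged genes. Blocks minimised absolute deviations from block medians at a cost per block of 6 median steps; on simulated runs 56 of 60 edges were found within 2 genes.

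The members, gene lists, block analysis and rule for named genes were chosen with earlier results of these data known. The rule took Erbb2; per stretch, leaving out predicted-gene, clone and Rik names, the 8 largest and 5 smallest log2 fold changes among genes over 2 SE from the stretch median, the 4 genes of highest mean CPM and the 2 nearest to the median; up to 3 genes of smallest p per list; and the genes at the limits. Other genes were named after their values were seen. Alternatives were RLE scaling, library totals, no filter, a filter at 1 CPM in 8 libraries, DESeq2 1.42.0, a covariate for immune or for muscle markers, single tumours left out, another pseudocount and the mean for levels, and, added later, EV 5, EV 7 and EV 9 left out together, block medians as reference and other block settings. Values of a few such genes are left out of the text.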

Additional observations from a re-analysis of the deposited data

Results flagged for a closer look

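In 8 of 158 groups of values examined (79 levels or genes, EV and p95HER2 apart), 1 tumour stood apart from the rest by more than Dixon's 95% limit, where chance gives about 1 in 20. Otof was at 10.7 CPM in p95HER2 4, with the next tumour at 5.84 CPM. In the same tumour B3glct was at 60.1 CPM and Fry at 24.5 CPM, next values 51.7 and 20.7 CPM. Gigyf1 was at 155 CPM in p95HER2 5, the next at 129 CPM. Arpc1b was at 1559 CPM in p95HER2 2, the next at 1333 CPM. Trrap was at 274 CPM in EV 10, the next at 241 CPM, Adgra3 at 94.5 CPM in EV 5, the next at 84.4 CPM, and Asl at 34.5 CPM in EV 3, the next at 32.1 CPM. No level of a stretch or block was among them.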

How the results depend on the processing

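RLE scaling, library totals, a filter at 1 CPM, the muscle marker level and DESeq2 kept the number of members called higher between 128 and 159 (141 as reported) and both stretch medians between 0.15 and 0.16. The immune marker level as a covariate gave 335 genes called in all, 11 members called higher and 0 lower, medians of 0.0698 in the first and 0.0509 in the second stretch and 0.0976 in co-varying blocks, and 44 members above and 37 below their stretch median by over 2 SE. Without EV 5, EV 7 and EV 9, chosen for their low level, the calls were 628 in all, 66 members higher and 1 lower, and the median r between members of opposite stretches was 0.19. With no filter 122 members were called higher and 5 lower. Against block medians 48 members lay below. For Fgl2 the covariate gave a log2 fold change of 0.0855. The cause of these moves was not tested.

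With each tumour left out in turn, 1289 to 2331 genes were called in all, 115 to 158 members higher and 5 (without EV 9, p95HER2 2 or p95HER2 3) to 15 lower (without EV 1), the stretch medians were 0.15 to 0.18 and 0.14 to 0.18, co-varying blocks 0.20 to 0.24, other blocks -0.02 to 0.0019, and 62 to 76 members lay above and 90 to 106 below their stretch median. Of 42 called genes that are named, 9 kept the call under all 26 alternatives. No paired analysis was possible because the labels number no tumours across groups. Other costs per block, p95HER2 tumours alone or log2 fold changes gave 8 to 11 blocks (9 as reported), not all with the same edges: p95HER2 tumours alone and log2 fold changes at the same cost both joined Phtf2 to Zfp512 in 1 run of 93 members, and p95HER2 tumours alone lost the edge between Stx18 and Zbtb49. At this depth members of low CPM had the widest errors.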
